A study of Mus musculus with 2 samples.

Results

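The interferon regulatory factor (IRF) genes Irf1, Irf2, Irf3, Irf4, Irf5, Irf7, Irf8 and Irf9 were examined for acetylation of histone H4 at lysine 16 (H4K16ac) in KAT8-cKO and wild-type macrophages. KAT8 is the acetyltransferase that writes most of this mark in mammalian cells. These are 8 named genes of 21887 protein-coding genes. For each, the peaks overlapping the annotated gene with 20 kb on each side, or 80 kb for Irf8, were taken from both lists. That gave 41 of 55149 peaks in the KAT8-cKO list and 48 of 58229 in the wild-type list. IRF proteins share an N-terminal DNA-binding domain that recognises GAAA repeats. IRF3, IRF5 and IRF7 are switched on by Toll-like and nucleic acid receptors and drive interferon genes, IRF9 binds DNA with STAT2 downstream of interferon receptors, and IRF4 and IRF8 act with PU.1 in the myeloid and lymphoid lineages. IRF1 activates interferon-responsive genes, and IRF2 was described as its antagonist.

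Both groups were mouse primary bone marrow-derived macrophages grown with M-CSF at 20 ng/ml and exposed for 2 h to the TLR7 agonist R848 at 100 ng/ml. TLR7 signals to IRF5 and IRF7 as well as to NF-κB. The groups differed by genotype label, KAT8-cKO or WT, where cKO was read as a conditional knockout. There was 1 library of each. The sources used here do not give the driver of the deletion, the age and sex of the mice or any pooling of animals. No unstimulated library was analysed here. CUT&Tag was used, an assay where a transposase tethered to an antibody tags the DNA next to a bound histone mark. Each peak carries the authors' fold over the peak caller's background and a −log10 q, the strength of its q-value, and both describe a peak within its own list. Values of the lists are set side by side here and are not a measured change in acetylation, since no group has a replicate and no test between genotypes could be made. The median fold was 2.78 over all KAT8-cKO peaks and 2.90 over all wild-type peaks, and 47.0% of KAT8-cKO and 46.9% of wild-type peaks had a q-value under 0.05. Of 12 macrophage marker genes, 6 had a peak within 1 kb of a gene end in the KAT8-cKO list and 10 in the wild-type list. Of 6 markers each of T cells, B cells, neutrophils, dendritic cells and fibroblasts, 1 to 2 did in the KAT8-cKO list and 2 to 3 in the wild-type list. Of all protein-coding genes 43.3% did in the KAT8-cKO list and 46.8% in the wild-type list, so the macrophage count in the KAT8-cKO list is near the share of all genes. The macrophage gene Lyz2 had none in either list.

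The sequences just upstream of the transcription starts show what a gene-end peak did or did not cover. RefSeq promoter entries (GRCm38.p6, the assembly of the mm10 build used for the peaks) matched all 8 genes, and the 250 bases before the outermost start were searched. The patterns were the interferon-stimulated response element core (GAAA, any 2 bases, GAAA), the STAT-binding GAS pattern (TTCNNNGAA) and the NF-κB consensus, on both strands, and TATAAA on the coding strand. These occur in 3.04%, 6.65%, 7.59% and 8.38% of the 17492 protein-coding promoters of that length. Capitals mark matches. Irf1 and Irf4 are shown because a peak covered part of this stretch in the wild-type list alone, Irf9 because both lists covered it, Irf2 because it held 3 of the 4 patterns, and Irf8 because no peak touched it.
Irf1 (chr11:53769764-53770013, plus strand): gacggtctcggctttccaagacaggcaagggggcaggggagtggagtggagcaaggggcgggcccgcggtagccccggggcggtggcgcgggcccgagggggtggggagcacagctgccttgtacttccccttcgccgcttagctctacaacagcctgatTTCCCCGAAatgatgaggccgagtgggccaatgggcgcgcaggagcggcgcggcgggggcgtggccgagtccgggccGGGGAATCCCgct
Irf4 (chr13:30748983-30749232, plus strand): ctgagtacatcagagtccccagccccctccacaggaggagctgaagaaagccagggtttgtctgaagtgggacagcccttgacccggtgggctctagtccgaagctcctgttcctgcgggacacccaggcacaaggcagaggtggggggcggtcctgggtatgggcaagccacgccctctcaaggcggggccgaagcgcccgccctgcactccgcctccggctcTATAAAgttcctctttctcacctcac
Irf2 (chr8:46739495-46739744, plus strand): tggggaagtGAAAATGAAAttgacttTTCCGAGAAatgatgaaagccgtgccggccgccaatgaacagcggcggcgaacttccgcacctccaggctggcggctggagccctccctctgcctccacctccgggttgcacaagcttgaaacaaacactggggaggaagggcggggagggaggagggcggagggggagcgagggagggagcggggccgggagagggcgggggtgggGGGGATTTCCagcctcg
Irf9 (chr14:55603735-55603984, plus strand): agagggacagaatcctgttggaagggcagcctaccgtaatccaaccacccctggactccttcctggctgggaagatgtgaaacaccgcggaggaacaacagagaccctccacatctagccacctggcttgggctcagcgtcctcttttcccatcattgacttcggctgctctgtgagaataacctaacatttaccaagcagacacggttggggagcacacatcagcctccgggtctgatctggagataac
Irf8 (chr8:120736108-120736357, plus strand): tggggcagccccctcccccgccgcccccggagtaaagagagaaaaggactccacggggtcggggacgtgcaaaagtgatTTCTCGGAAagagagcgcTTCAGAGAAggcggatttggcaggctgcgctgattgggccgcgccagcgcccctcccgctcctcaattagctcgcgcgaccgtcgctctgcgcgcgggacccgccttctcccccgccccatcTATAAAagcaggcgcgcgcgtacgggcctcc

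At Irf1 the wild-type peak covered 144 of the 250 bases, the end nearest the start, and took in both the GAS match, 90 to 82 bases before the start, and the NF-κB consensus match, 13 to 4 bases before it. At Irf4 the wild-type peak covered 174 bases, the part farthest from the start, and left out the TATAAA match at 26 to 21 bases. At Irf2 a weak wild-type peak covered 113 bases with the interferon-stimulated response element core and the GAS match, and no KAT8-cKO peak covered any of the 250. At Irf9, which held none of the patterns, 213 bases lay in the KAT8-cKO peak and 128 in the wild-type peak. Irf8 held 2 GAS matches and a TATAAA, all outside peaks. Of the promoters not printed, Irf7 held a TATAAA 29 to 24 bases before the start, inside its KAT8-cKO peak, and Irf3 and Irf5 held no match. As at Irf8, no peak of either list touched the 250 bases of Irf3 or Irf5. No wild-type peak touched those of Irf7. The GC content of these stretches ran from 54.4% at Irf7 and Irf9 to 72.0% at Irf5, and the median over all promoters was 55.2%. A match is a run of letters and not a shown binding site.

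The Irf genes divided into 3 patterns at their ends. Irf2, Irf5, Irf7 and Irf9 had a gene-end peak in both lists, Irf1 and Irf4 had one in the wild-type list only, and Irf3 and Irf8 had none in either. No member had one in the KAT8-cKO list only. Over all protein-coding genes 35.8% were marked in both lists, 11.1% in the wild-type list only, 7.52% in the KAT8-cKO list only and 45.7% in neither. Thus 4 of 8 members were marked in the KAT8-cKO list, where 43.3% of all protein-coding genes were, and 6 of 8 in the wild-type list, where 46.8% were. Of the 6 members marked in the wild-type list 2 lacked a KAT8-cKO gene-end peak, and 23.6% of all genes marked in the wild-type list did, so with 8 genes this is close to the background. Every gene-end peak of a member met the window at the start of the gene, and none that at its 3′ end. At Irf2 the overlapping peaks reached only the inner edge of that window. Their summits lay 1.60 kb (KAT8-cKO) and 1.36 kb (wild type) past the start.

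None of these peaks was strong. Their folds ran from 2.24 to 3.32 in the KAT8-cKO list and from 2.44 to 3.20 in the wild-type list, and the median of the strongest peak over all marked genes was 3.12 in the KAT8-cKO list and 3.42 in the wild-type list. None had a −log10 q of at least 5, a level reached by 13.8% of marked genes in the KAT8-cKO list and 26.6% in the wild-type list. In the KAT8-cKO list Irf5 and Irf2 lay above that median, Irf2 barely so, and in the wild-type list every marked member lay below it. With only peaks of a q-value under 0.05 counted, 3 of 8 members were marked in the KAT8-cKO list (31.3% of all genes) and 6 of 8 in the wild-type list (36.8%).

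**Figure D1:**
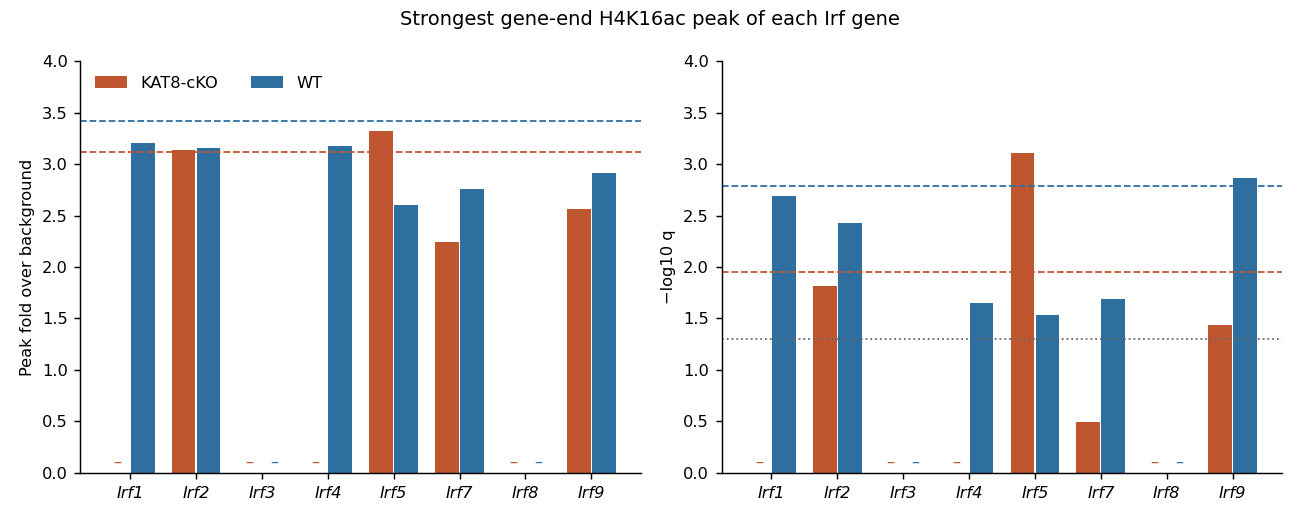
Bars give the fold over background (left) and −log10 q (right) of the strongest gene-end peak of each Irf gene in the KAT8-cKO and the wild-type list, with a dash where there was no peak. Dashed lines are the medians over all marked genes of each list, and the dotted line is a q-value of 0.05; Irf1 and Irf4 have a wild-type bar only and Irf3 and Irf8 have none.

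The IRFs activated by innate receptors were unlike each other. Irf5, a driver of inflammatory cytokine genes in macrophages (chromosome 6, 29526130 to 29541869, mm10), had a peak just inside the gene in both lists. The KAT8-cKO peak had a fold of 3.32 at −log10 q 3.11, with its summit 306 bp downstream of the start in the promoter entries. That start lies inside the gene interval given here, so the peaks lie farther from the printed gene end than from it. The wild-type peak had a fold of 2.60 at −log10 q 1.53, with its summit 188 bp downstream. They overlapped by 168 bp. The KAT8-cKO peak stood in the strongest 11.1% of its list, whereas the wild-type one stood at 42.4% of its own.

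The same order held at a flanking peak of Irf5 about 9 kb upstream. It had a fold of 3.62 at −log10 q 3.51 in the KAT8-cKO list, and a fold of 2.21 at −log10 q 0.34 in the wild-type list. A second upstream peak, with summits 2.17 kb (KAT8-cKO) and 2.11 kb (wild type) before the start, had the opposite order, with a −log10 q of 0.89 in the KAT8-cKO list and 1.80 in the wild-type list. In the body of Irf5 each list had 1 peak, about 10 kb into the gene, and these missed each other by 209 bp, with folds of 2.66 in the KAT8-cKO and 2.82 in the wild-type list.

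Irf7, the interferon-inducible factor that amplifies type I interferon (chromosome 7, 141263183 to 141266499, minus strand), had a gene-end peak in both lists. It was weaker than that of Irf5 in the KAT8-cKO list but not in the wild-type list. The KAT8-cKO peak had a fold of 2.24 at −log10 q 0.49, which is not under a q-value of 0.05. Its summit lay 63 bp upstream of the start in the promoter entries, but still inside the gene interval given here. The wild-type peak had a fold of 2.76 at −log10 q 1.69, with its summit 198 bp downstream. They overlapped by only 86 bp. The wild-type list also had a body peak 1.19 kb past that start with a fold of 3.13 at −log10 q 3.05, the strongest body or end peak of Irf7. The nearest KAT8-cKO peak was 940 bp away. Upstream, both lists had a peak at an end of the neighbouring gene Cdhr5, with folds of 2.50 in the KAT8-cKO list and 3.19 in the wild-type list.

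Irf3, the constitutively present factor that starts interferon beta transcription (chromosome 7, 44997648 to 45002848), had no peak at its ends or in its body in either list. Its start lies 10 bp from the end of Bcl2l12, so the gap between these genes was without a peak too. The peaks in its window belonged to neighbours. One at an end of Prmt1, an arginine methyltransferase, had a fold of 2.99 in the KAT8-cKO list and 3.25 in the wild-type list, over almost the same bases (596 bp of 611 bp in each). One at an end of Scaf1 had a fold of 2.21 at −log10 q 0.66 in the KAT8-cKO list, and a fold of 2.99 at −log10 q 3.22 in the wild-type list. A wild-type peak of 818 bp between Scaf1 and Rras, with a fold of 3.08, had no KAT8-cKO counterpart, the nearest lying 769 bp away.

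Irf9, the DNA-binding part of the complex with STAT2 (chromosome 14, 55603985 to 55610030), was marked at its start in both lists. The KAT8-cKO peak, 228 bp wide, had a fold of 2.56 at −log10 q 1.44, and the wild-type peak, 525 bp wide, had a fold of 2.91 at −log10 q 2.86. They overlapped by 91 bp, with the KAT8-cKO summit 126 bp upstream and the wild-type summit 70 bp downstream of the start. The end of Rnf31 lies 311 bp away, and both peaks also fell in its window, so the gene to which they belong cannot be told apart here.

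The strongest peak of all 8 windows, in each list, lay 12.6 kb (KAT8-cKO) and 12.7 kb (wild type) upstream of Irf9. It sits at the facing ends of Psme2, a subunit of the proteasome activator, and Rnf31, the catalytic subunit of the linear ubiquitin ligase complex. This peak was 801 bp wide in the KAT8-cKO list, with a fold of 4.17 at −log10 q 6.89, and 1556 bp wide in the wild-type list, with a fold of 5.04 at −log10 q 11.86. It stood in the strongest 2.61% of the KAT8-cKO list and the strongest 1.43% of the wild-type list. It is nearer to those genes than to Irf9 and is no property of Irf9. The KAT8-cKO list also had a weak body peak in Irf9 (fold 2.04, −log10 q 0.30) with no wild-type counterpart.

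Irf1, an early interferon- and NF-κB-responsive activator (chromosome 11, 53770014 to 53778374), had a peak over its start in the wild-type list alone. That peak ran from 53769870 to 53770272, with its summit 52 bp downstream of the start, a fold of 3.20 at −log10 q 2.69, in the strongest 19.4% of its list. The nearest KAT8-cKO peak was 5.75 kb away. No peak of either list lay elsewhere in the gene body. Irf1 has no protein-coding neighbour in its window, the nearest being Il5 at 44.9 kb.

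Upstream of Irf1 both lists had a cluster of peaks, and here the wild-type list had its strongest peak by −log10 q among those in the 8 windows that were not at the end of another protein-coding gene. The KAT8-cKO list had 3 peaks between 53762132 and 53764124, with folds of 2.44, 2.72 and 3.35. The wild-type list had 2 between 53762605 and 53764211, with folds of 2.51 and 4.19. The strongest of each list had summits within 22 bp of each other, about 6.2 kb upstream of the start, with a −log10 q of 3.73 in the KAT8-cKO list and 7.63 in the wild-type list. The wild-type peak was 1015 bp wide and in the strongest 3.42% of its list, and the whole KAT8-cKO peak of 663 bp lay inside it. So the upstream cluster of Irf1 was called in both lists while the peak over its start was called in one. Downstream, from 16.7 kb to 27.1 kb past the start, there were 2 KAT8-cKO and 3 wild-type peaks and none overlapped. The closest missed each other by 24 bp, and both were weak (−log10 q 0.50 in the KAT8-cKO list and 0.77 in the wild-type list).

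Irf2 (chromosome 8, 46739745 to 46847458), the longest of the 8 genes at 107.7 kb, had a broad peak shortly inside the gene in both lists. It was 870 bp wide in the KAT8-cKO list, with a fold of 3.14 at −log10 q 1.82, and 920 bp wide in the wild-type list, with a fold of 3.16 at −log10 q 2.43. The peaks overlapped by 697 bp, and their summits lay 1.60 kb (KAT8-cKO) and 1.36 kb (wild type) downstream of the start. These were close in both width and fold. Upstream of the start the wild-type list alone had a weak peak, with a fold of 2.44 at −log10 q 0.74.

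The body of Irf2 held 2 KAT8-cKO peaks and 9 wild-type peaks, the widest gap in peak number among the members, and this gene was singled out after its values were seen. The KAT8-cKO peaks had folds of 2.35 and 2.56. The wild-type peaks had folds of 2.10 to 3.69 and were spread from 6.36 kb to 105 kb past the start, with 3 of them close together near the 3′ end. Only 1 peak of each list overlapped, about 98 kb into the gene. Most were weak: 0 of the 2 KAT8-cKO and 2 of the 9 wild-type body peaks had a q-value under 0.05, beside 47.0% of all KAT8-cKO and 46.9% of all wild-type peaks. Among 3717 genes 0.5 to 2 times as long as Irf2, 6.67% had at least 9 body peaks in the wild-type list, 0.807% had at least 7 more body peaks in the wild-type list, as Irf2 did, and 0.296% had at least 7 more in the KAT8-cKO list. The median of such genes was 2 body peaks in each list. The strongest body peak, 6.36 kb past the start, had a −log10 q of 2.98. A further wild-type peak 17.5 kb upstream, with a fold of 4.40 at −log10 q 4.64, had no KAT8-cKO peak within 7.86 kb.

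Irf4, a factor of lymphocytes and of alternatively activated macrophages (chromosome 13, 30749233 to 30766981), had the sparsest window, with 1 KAT8-cKO and 2 wild-type peaks. The wild-type peak at its start, 200 bp wide, had a fold of 3.18 at −log10 q 1.65, with its summit 121 bp upstream. The other wild-type peak lay 20.1 kb past the start, beyond the 3′ end, with a fold of 3.91 at −log10 q 3.33. The only KAT8-cKO peak lay 37.0 kb past the start, with a fold of 2.99 at −log10 q 1.41. No peak overlapped between the lists, and the KAT8-cKO peak was 36.9 kb from the wild-type start peak.

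Irf8, a factor needed for monocyte and dendritic cell development (chromosome 8, 120736358 to 120756694), had no peak at either end in either list. Its window of 180.3 kb held 12 KAT8-cKO and 10 wild-type peaks, of which 3 in each list overlapped. One of these, at the shared ends of Cox4i1, Emc8 and the predicted gene Gm27021, had a fold of 3.33 in the KAT8-cKO list and 2.60 in the wild-type list. The others lay away from gene ends. The broadest, with its summit about 50 kb upstream, was 661 bp wide in the KAT8-cKO list, with a fold of 2.75, and 812 bp wide in the wild-type list, with a fold of 2.86.

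The shared peak nearest Irf8 lay about 11 kb upstream of its start. It had a fold of 3.20 at −log10 q 1.87 in the KAT8-cKO list, and a fold of 2.56 at −log10 q 0.82 in the wild-type list. In the gene body 1 KAT8-cKO peak (fold 3.22, −log10 q 2.25) and 2 wild-type peaks (folds 2.39 and 2.55, neither with a q-value under 0.05) were at different places. Downstream of the gene the lists had no peak in common, and the strongest there was a KAT8-cKO peak 25.1 kb past the start, with a fold of 3.61 at −log10 q 3.09. Of all peaks in the window, 6 of 12 in the KAT8-cKO list and 2 of 10 in the wild-type list had a q-value under 0.05. Over the whole lists 47.0% of KAT8-cKO and 46.9% of wild-type peaks did, so the KAT8-cKO count is near that of its list. These counts are small.

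**Figure D2:**
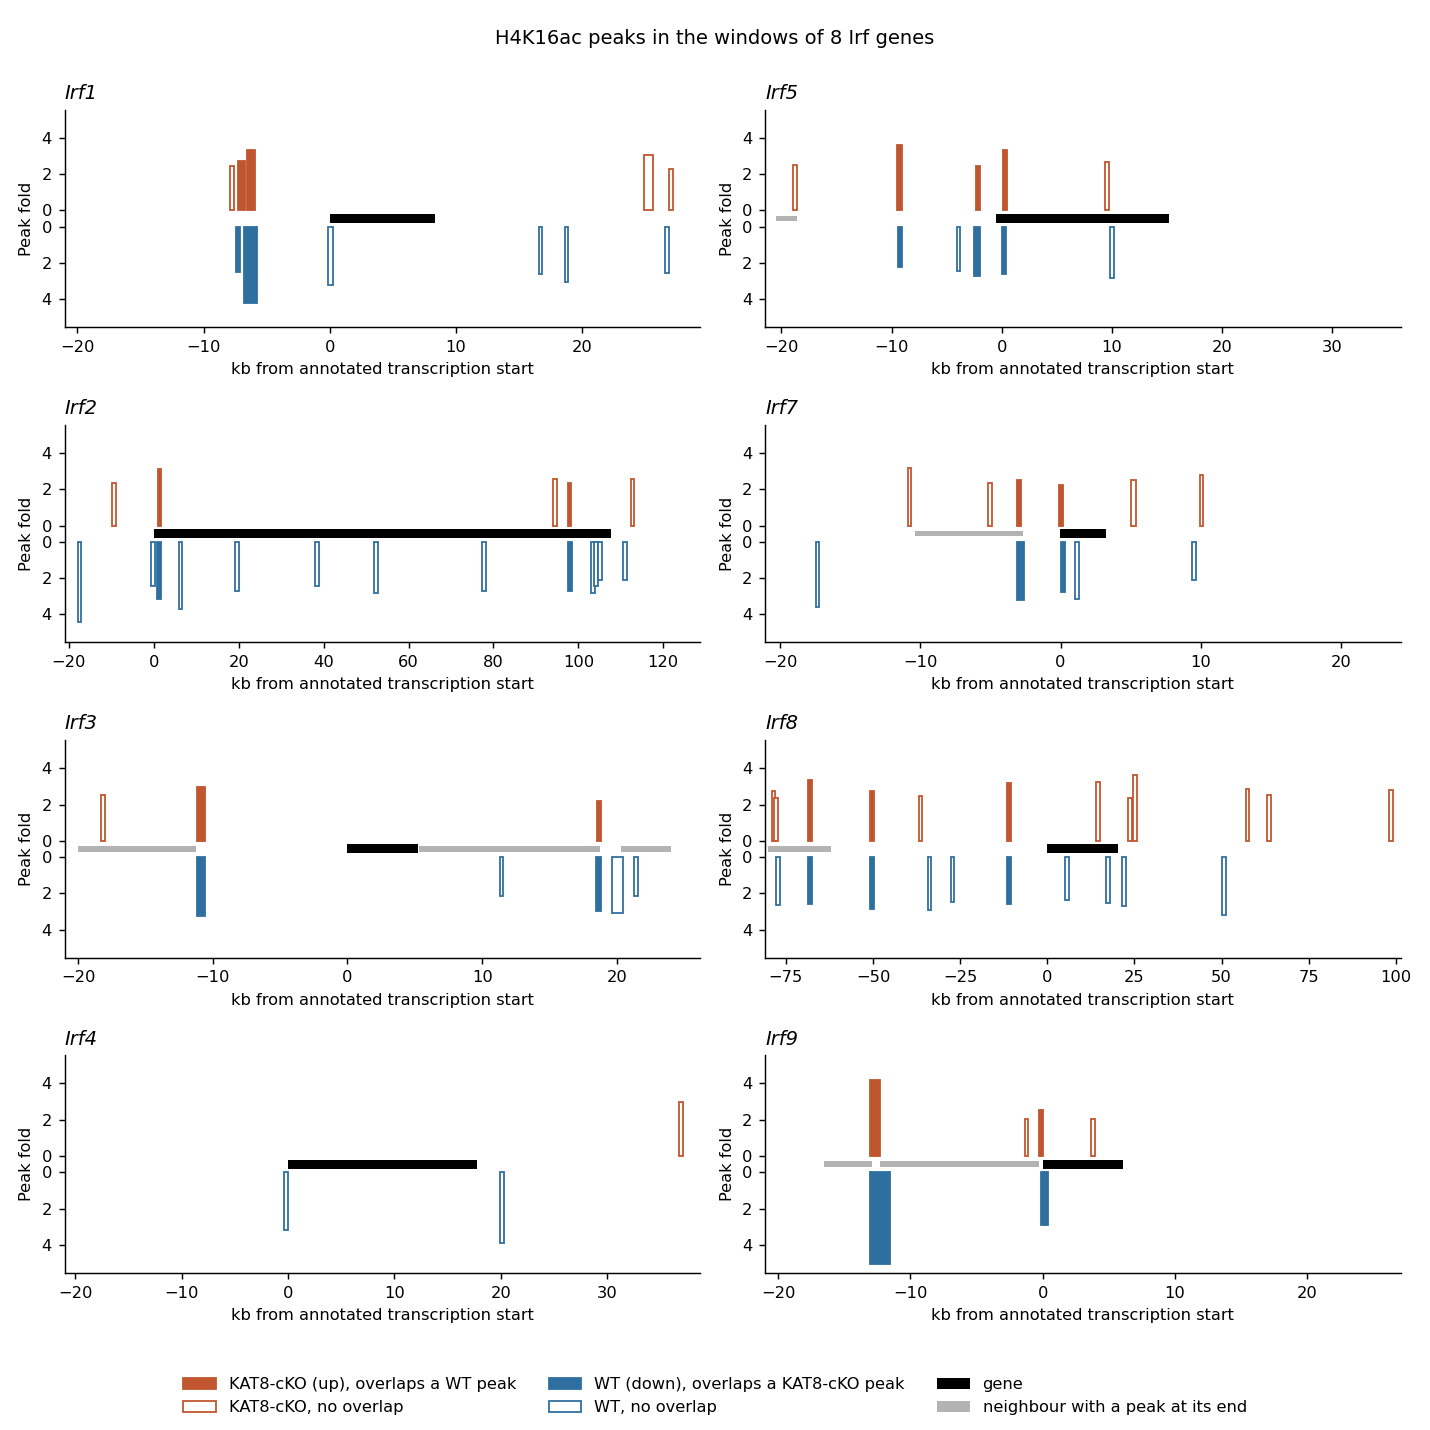
Each panel maps the peaks of 1 Irf gene window along the distance in kb from the outermost annotated transcription start, in the direction of transcription, with KAT8-cKO peaks drawn upwards and wild-type peaks downwards by their fold over background (narrow peaks are drawn at a minimum width). Filled bars overlap a peak of the other list; the starts of Irf1 and Irf4 have a wild-type bar only, and Irf2 has 9 wild-type and 2 KAT8-cKO bars in its body.

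Taking the 8 windows as a whole, peaks of the KAT8-cKO list fell into 4 at gene ends, 5 in bodies and 32 in flanks, and those of the wild-type list into 7 at gene ends, 13 in bodies and 28 in flanks. They covered 14.34 kb in the KAT8-cKO list and 19.71 kb in the wild-type list. Irf2 alone made up 5 of the 41 KAT8-cKO and 13 of the 48 wild-type peaks. The median width was 295 bp in each list. A protein-coding gene with 20 kb on each side had a median of 3 peaks in each list, with an interquartile range of 1 to 5. Irf7 lay above that range in the KAT8-cKO list, with 6 peaks, and Irf1, with 6, and Irf2, with 13, in the wild-type list. The window of Irf8 is wider and was not set against it.

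**Figure D3:**
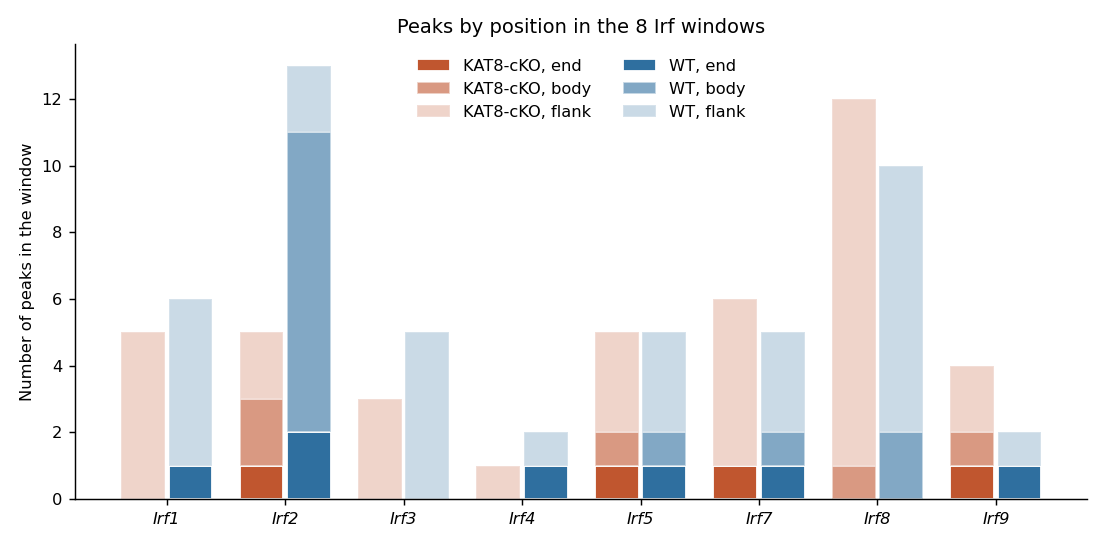
Stacked bars count the peaks in each Irf gene window at gene ends, in the gene body and in the flanks (20 kb on each side, 80 kb for Irf8), with the KAT8-cKO bar left of the wild-type bar. Irf2 shows 5 KAT8-cKO and 13 wild-type peaks, and Irf8, with the widest flanks, 12 KAT8-cKO and 10 wild-type peaks.

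Of the KAT8-cKO peaks 16 of 41 were overlapped by a wild-type peak, 39.0% (95% Wilson interval 25.7 to 54.3), and 35.6% of the whole KAT8-cKO list were. Of the wild-type peaks 16 of 48 were overlapped by a KAT8-cKO peak, 33.3% (21.7 to 47.5), and 33.2% of the whole list were. The intervals cover counting error over peaks only. The windows of the Irf genes thus shared peaks at about the rate of all peaks. Peaks of like strength, taken from the same of 10 equal strength groups of their list, were shared at 34.8% (KAT8-cKO) and 34.2% (wild type).

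By position, all 4 KAT8-cKO gene-end peaks and 4 of 7 wild-type ones were shared, at Irf2, Irf5, Irf7 and Irf9. Peaks of like strength anywhere in the genome, whatever their position, were shared at 40.3% (KAT8-cKO) and 36.9% (wild type). These are not gene-end peaks alone. Over all genes with a KAT8-cKO gene-end peak, 17.4% lacked a wild-type one, and 23.6% of those with a wild-type one lacked a KAT8-cKO one. Those shares are by gene and not by overlap of peaks. In gene bodies 1 of 5 KAT8-cKO and 1 of 13 wild-type peaks were, beside 23.4% (KAT8-cKO) and 25.3% (wild type) of peaks of like strength. In flanks, those at the end of a neighbouring gene were shared for 5 of 8 KAT8-cKO and 5 of 7 wild-type peaks, beside 39.9% (KAT8-cKO) and 51.1% (wild type). Flank peaks away from gene ends were shared for 6 of 24 KAT8-cKO and 6 of 21 wild-type peaks, beside 34.5% (KAT8-cKO) and 33.1% (wild type). These counts are small, and peaks of one gene are not independent of each other. The summits of the 17 overlapping pairs lay 12 to 1064 bp apart, with a median of 110 bp; most of these peaks are narrow, so a small gap follows largely from the overlap. In 9 of the 17 pairs both peaks had a q-value under 0.05. Among peaks without a counterpart, 7 of 25 in the KAT8-cKO list and 11 of 32 in the wild-type list did. The like shares were not counted over all peaks. Strong peaks were shared more often in the whole lists too. In the strongest of the 10 strength groups 87.6% (KAT8-cKO) and 89.9% (wild type) were shared, and in the weakest 15.9% (KAT8-cKO) and 13.4% (wild type).

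Genes that act upstream of, with or downstream of the IRFs were counted by the same gene-end rule. Of 13 genes that signal to IRFs, 7 were marked in the KAT8-cKO list and 10 in the wild-type list, or 53.8% in the KAT8-cKO list, where 43.3% of all protein-coding genes were, and 76.9% in the wild-type list, where 46.8% were. None was in the KAT8-cKO list only, as were 7.52% of all genes, about 1 in a list of this size. Tasl could not be matched to the gene table by name. The strongest was Irak4, a kinase of the MYD88 complex, with a fold of 6.16 in the KAT8-cKO list and 5.81 in the wild-type list, at a peak that is also at the end of Pus7l. Traf6, a ubiquitin ligase below that complex, had a fold of 2.99 in the KAT8-cKO list and 4.19 in the wild-type list. Mavs, the adaptor of RNA sensors, had a fold of 3.0 in the KAT8-cKO list and 3.92 in the wild-type list. The strongest Mavs peaks lay at different ends of the gene, but a weaker KAT8-cKO peak (fold 2.51, −log10 q 0.66) lay inside the wild-type one.

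Myd88, the adaptor of TLR7, had a fold of 2.43 in the KAT8-cKO list at one end of the gene and 3.79 in the wild-type list at its other end, where the end of Acaa1a also lies. In the wild-type list only were Irak1 (3.91), which is on the X chromosome, Slc15a4 (3.18), a lysosomal transporter needed for IRF5 activation, and Traf3 (2.75). The Slc15a4 peak is also at the end of Glt1d1. Tlr7, Ikbke and Ticam1 were marked in neither list.

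Of 10 partners and co-repressors of IRFs, 8 were marked in the KAT8-cKO list and 9 in the wild-type list, beside the 43.3% and 46.8% of all genes in those lists. Crebbp, a coactivator acetyltransferase, had a fold of 4.17 in the KAT8-cKO list and 5.56 in the wild-type list, and its relative Ep300 had 4.17 in the KAT8-cKO list and 3.36 in the wild-type list. The co-repressor Irf2bp2 had 3.46 in the KAT8-cKO list and 3.60 in the wild-type list. Batf3, which acts with IRF8 in dendritic cells, had a weak peak in the wild-type list only (2.69, −log10 q 0.77), and Irf2bp1 was marked in neither.

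Of 12 target genes of IRFs, 8 were marked in the KAT8-cKO list and 7 in the wild-type list, or 66.7% in the KAT8-cKO list and 58.3% in the wild-type list. The antiviral genes Ifit1 and Ifit2 each had a fold of 3.20 in the KAT8-cKO list, at separate peaks, and 3.72 and 3.23 in the wild-type list. The Ifit1 peak of each list is also at the end of Ifit1bl2. Gbp2, a guanylate-binding protein gene, had 3.20 in the KAT8-cKO list and 3.18 in the wild-type list, and Il12b, a cytokine gene, 3.15 in the KAT8-cKO list and 2.93 in the wild-type list. In the KAT8-cKO list only were Rsad2 (3.31), Usp18 (2.99) and Ciita (2.33, −log10 q 0.37). In the wild-type list only were Oas1a (3.31) and Ifit3 (2.53, −log10 q 0.99). Ifnb1 and Isg15 had no gene-end peak in either list. Thus 3 of 12 target genes were marked in the KAT8-cKO list only, as were 7.52% of all protein-coding genes, and lists of this size are too small to set apart from each other. With only peaks of a q-value under 0.05 counted, 7 genes of the 3 related lists were in the KAT8-cKO list only and 5 in the wild-type list only. The KAT8-cKO-only genes then were Rsad2, Usp18, Il12b and Cxcl10 of the target genes, and Sting1, Spi1 and Irf2bpl of the other lists. The wild-type-only genes then were Oas1a of the target genes, and Irak1, Slc15a4, Myd88 and Tbk1 of the genes that signal to IRFs. Myd88 had a −log10 q of 0.66 in the KAT8-cKO list and 5.85 in the wild-type list. Tbk1 had 0.66 in the KAT8-cKO list and 1.88 in the wild-type list, at peaks also at the end of Xpot. Ciita was no longer marked. The genes that joined are named here after their values were seen. Il12b had a −log10 q of 1.84 in the KAT8-cKO list and 1.18 in the wild-type list, and Cxcl10 1.41 in the KAT8-cKO list and 0.77 in the wild-type list. Sting1 then had a −log10 q of 1.41 in the KAT8-cKO list and 1.18 in the wild-type list, Spi1 1.59 in the KAT8-cKO list and 1.07 in the wild-type list, and Irf2bpl 3.16 in the KAT8-cKO list and 0.94 in the wild-type list. At Il12b and Sting1 the peaks of the lists overlapped. At Cxcl10, Spi1 and Irf2bpl they did not, so those values belong to different places.

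**Figure D4:**
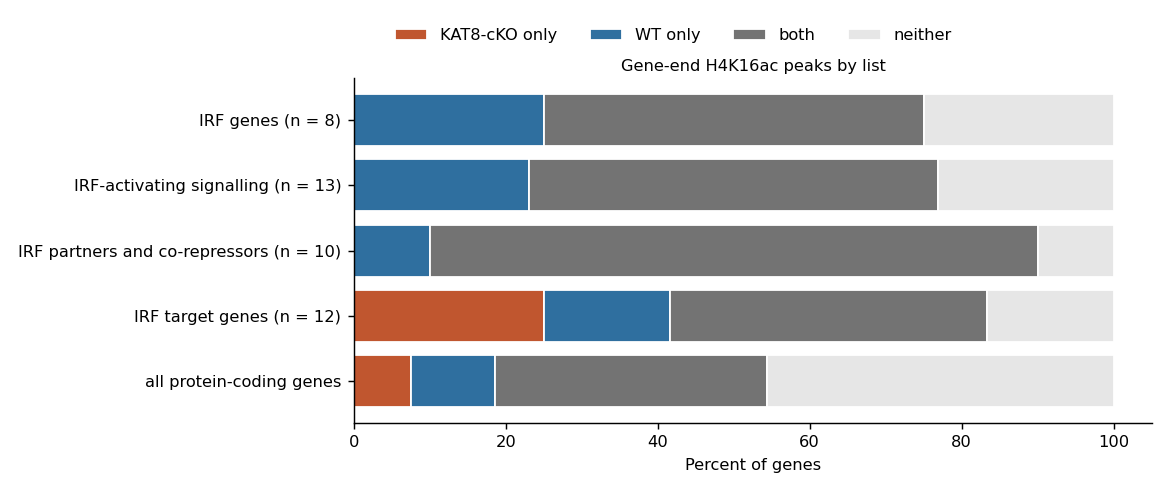
Bars give the percent of genes with a gene-end peak in the KAT8-cKO list only, the wild-type list only, both or neither, for the Irf genes, the 3 related gene lists and all protein-coding genes. The KAT8-cKO-only bar stands at 3 of 12 for the target genes, at 7.52% for all genes and at 0 for the other groups, which hold 8 to 13 genes each.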

How the data were processed

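H4K16ac was profiled by CUT&Tag in 1 KAT8-cKO and 1 wild-type library. The submitters' processing notes name MACS2 2.2.7.1, Bowtie 0.12.8 and DiffBind, without saying what each did, and the build mm10. Peak settings, any control library and read totals are not stated in these sources, so depth is unknown. The deposited lists hold for each peak a score (10 times −log10 p, not used), a fold (ratio to the background the peak caller estimated), the −log10 p-value, the −log10 q-value and the summit offset (other); these are the authors' values, per the labels, which name MACS2, and the narrowPeak layout. The lowest −log10 p was 2.01 in both deposited lists, so weak peaks are included.

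Gene positions and starts came from RefSeq tables of GRCm38.p6, without exons, so body peaks were not assigned to exons or introns. A peak was a gene-end peak if it overlapped 1 kb on either side of an annotated gene end, otherwise a body peak if it overlapped the gene, otherwise a flank peak. Summit distances were measured from the outermost start in the promoter entries. At Irf5 and Irf7 that start lies inside the annotated gene, and at the other members it is the gene end itself. Peaks with at least 1 bp in common were shared. Intervals are 95% Wilson intervals. Python 3.11.15, pandas 2.3.3, NumPy 2.4.6 and SciPy 1.17.1 were used. On simulated windows the overlap search differed from a direct search in 0 of 1000 cases for each list. Groups were compared by description only, with counts set beside all protein-coding genes. All members are named, with neighbours whose ends hold a peak, up to 4 genes of each related list per pattern by peak fold, and those of the small groups marked in neither list, which were named after their values were seen; a partner gene that this rule would name is counted in its list and not reported here by name. Members and lists were chosen with earlier results of these data known.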

Additional observations from a re-analysis of the deposited data

How the results depend on the processing

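No paired analysis was possible because each genotype has 1 library, and for the same reason no replicate could be left out. Thresholds moved the counts most. The shares of all genes marked in 1 list only were not counted at the changed settings. With a −log10 q of at least 5, 0 members were marked at an end in the KAT8-cKO list, 0 in the wild-type list and 0 in the wild-type list only; the windows then held 1 KAT8-cKO peak (100% shared) and 2 wild-type peaks (50% shared), and the pathway lists 2 genes marked in the KAT8-cKO list, 3 in the wild-type list, 1 in the KAT8-cKO list only and 2 in the wild-type list only. With a q-value under 0.05, the windows held 18 KAT8-cKO and 23 wild-type peaks, Irf7 was no longer marked in the KAT8-cKO list, and 7 pathway genes were in the KAT8-cKO list only. With the strongest 20000 peaks of each list, the windows held 17 KAT8-cKO and 18 wild-type peaks, Irf5 was the 1 member in the KAT8-cKO list only, Irf4 was marked in neither, and 15 pathway genes were marked in the KAT8-cKO list, 16 in the wild-type list and 5 in the KAT8-cKO list only. With a gene-end window of 500 bp, 2 members (Irf7 and Irf9) were marked in the KAT8-cKO list, and 5 pathway genes were in the KAT8-cKO list only. With 3 kb, Irf8 became marked in the wild-type list at its 3′ end and not at its start. The peaks there lay 17.5 kb and 22.1 kb past the start, with −log10 q of 0.80 and 1.05, neither under a q-value of 0.05. Flanks of 10 kb gave 23 KAT8-cKO peaks, and flanks of 80 kb gave 80 KAT8-cKO and 105 wild-type peaks. The wild-type-only call at Irf1 remained at every setting but the −log10 q of at least 5. A window around transcription starts alone, chosen after seeing the data, left the members' calls as they were. The other 55 values stayed within 1.5 times, or for shares within the interval, of those reported. Read depth is unknown, so a peak missing from a list was not detected there and cannot be called absent.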
